A study of Mus musculus with 17 samples.

Results

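Ribosomal protein (RP) genes encode the proteins of the cytosolic ribosome, and they are used here as a set of housekeeping genes with CpG-rich promoters. The set held 56 listed genes, 37 of the large subunit (names starting Rpl) and 19 of the small subunit (Rps), without pseudogenes. A site belonged to the set when it lay between 1000 bp upstream of the transcription start and the end of a listed gene and had at least 50 reads in at least 13 of 17 mice. Of 98 sites in the windows of 55 annotated genes, 38 sites in 15 genes passed, out of 18884 autosomal sites that passed the same depth rule in the whole series. The other 60 sites failed on depth, 11 annotated genes had no site in their window, and Rpl41 had no gene record of that name in the annotation.

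DREAM, short for Digital Restriction Enzyme Analysis of Methylation, measured DNA methylation. In it SmaI and then XmaI cut CCCGGG sites and leave read ends that tell unmethylated from methylated copies. Whole blood came from 17 C57BL/6 mice, an inbred strain, with no transgene or deletion given in the labels. The AL-young group held 5 mice (2 females, 3 males) fed ad libitum (AL) and aged 4 months. The AL-old group held 7 mice (5 females, 2 males) fed ad libitum and aged 29 to 33 months, and the CR-old group held 5 mice (2 females, 3 males) on caloric restriction (CR) and aged 32 to 38 months. Mice are named by group and number. Whole blood is a mixture of leukocytes, so a few cells with full methylation and many cells with a little cannot be told apart, and no expression was measured, so neither the blood label nor the activity of the RP genes could be checked here.

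Ribosomes are built from the RP, whose genes are transcribed strongly in nearly every cell. Promoters of such genes usually lie in CpG islands (CGI), stretches dense in CpG that are kept free of methylation in most tissues, while CpG in gene bodies and between genes is usually methylated. With age, methylation tends to creep into some islands, above all those of developmental genes, and to be lost elsewhere, a change called drift. The question was whether RP promoters changed between young and old mice, and whether they differed under caloric restriction.

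The stretches below show why DREAM reads these promoters well or poorly, since a site is read only where CCCGGG occurs. All are on mm9 and run 5′ to 3′ along the RP gene, with each assayed CCCGGG in capitals. The first 3 lie wholly upstream of the gene start and touch no annotated exon. The Rpl37 stretch is chr15:5066363-5066612, the Rps13 stretch chr7:123478035-123478204 and the Rpl23 stretch chr11:97643752-97643871.
Rpl37: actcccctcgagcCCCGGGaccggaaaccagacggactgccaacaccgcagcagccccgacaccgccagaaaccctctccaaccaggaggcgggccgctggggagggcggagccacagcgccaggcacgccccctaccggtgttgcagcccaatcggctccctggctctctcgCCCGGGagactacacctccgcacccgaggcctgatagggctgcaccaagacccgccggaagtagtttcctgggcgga
Rps13: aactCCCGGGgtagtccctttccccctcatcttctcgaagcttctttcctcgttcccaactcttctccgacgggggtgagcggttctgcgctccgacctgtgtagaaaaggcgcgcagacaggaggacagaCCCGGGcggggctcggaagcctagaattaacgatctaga
Rpl23: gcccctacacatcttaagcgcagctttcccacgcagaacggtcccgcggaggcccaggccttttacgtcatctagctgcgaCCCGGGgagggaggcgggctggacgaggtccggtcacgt

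The Rpl37 stretch of 250 bases had 69.6% GC, 21 CpG and a ratio of observed to expected CpG of 0.709. The Rps13 stretch of 170 bases had 14 CpG and a ratio of 0.955, and the Rpl23 stretch of 120 bases had 12 CpG and a ratio of 0.923. Every capital CCCGGG in them was read in all 17 mice, and the highest group mean among them was 0.182%, at Rps13 -493 in AL-young mice. The next sequences, of 30 bases each, surround the sites on which the comparisons below turn. Rps18 -435 (chr17:34093367-34093396) was the most methylated RP site and Rps18 -125 (chr17:34093057-34093086) its unmethylated neighbour. Rps7 +601 (chr12:29320203-29320232) was the site with the next lowest adjusted p for age. Rpl13a -67 (chr7:52391840-52391869) and Rpl13a -88 (chr7:52391675-52391704) lay outside islands.
Rps18 -435: tggaggtgggacCCCGGGcaaattggttcc
Rps18 -125: gcaacaccagctCCCGGGcagcggccgcca
Rps7 +601: acagcctctattCCCGGGgcaagagacggg
Rpl13a -67: tggcgtgtcccgCCCGGGctcgaactcacc
Rpl13a -88: aaggtccccactCCCGGGcagagggagcag

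A site is named by its gene and its distance in bp from the nearest annotated transcription start of that gene, negative upstream. The 38 sites ran from -493 to +708 bp, with 35 within 500 bp of a start, 14 upstream and 24 downstream. By annotation 14 lay in introns, 11 upstream of the gene, 10 in untranslated exons and 3 in coding exons. Islands were called from the sequence with at least 200 bp, at least 50% GC and a ratio of observed to expected CpG no lower than 0.6. In 15 such islands of 680 to 1566 bp lay 36 of the RP sites (94.7%), against 60.9% of all autosomal sites. Of the 38 sites, 8 also lay in the promoter of a neighbouring gene (Lrsam1, Lias, Flt3l or Vps52).

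The 11 large subunit genes with a site that passed were Rpl9, Rpl10a, Rpl12, Rpl13a, Rpl23, Rpl24, Rpl26, Rpl27, Rpl37, Rplp0 and Rplp1, with 28 sites. The 4 small subunit genes were Rps7, Rps13, Rps15 and Rps18, with 10 sites. Rpl24 had the most sites, 6, of which 4 lay at another annotated start, 7699 to 8316 bp from the gene start, in an island of 1322 bp. These 4 were Rpl24 +91, Rpl24 +424, Rpl24 +506 and Rpl24 +708. The gene record ran on to a site 18702 bp past that start. Whether these 4 sites belong to the Rpl24 promoter or to another gene was not checked. Adjacent sites can be the ends of 1 restriction fragment, so they are not independent measurements. Of 22 pairs of adjacent sites within 400 bp, 9 had total reads within 10% of each other, such as Rpl10a -48 and Rpl10a +95 with 22814 and 22769 reads. The 36-bp flanks of 36 sites occurred at 1 place in the genome, while those of the coding exon sites Rpl27 +299 and Rpl24 +38 occurred at up to 3. Rpl27 +299 held 16654 reads and its neighbours 2365 and 3384, so reads from copies elsewhere cannot be told apart from its own.

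Depth decided which sites were read. The 38 sites had 33 to 8210 reads per mouse, with a median of 620, and all had another CCCGGG within 400 bp (median 160 bp). Of the 60 sites that failed, 13 had one within 400 bp, and the median distance was 1376.5 bp. Just inside the threshold were Rpl27 +372 and Rplp1 -339, with at least 50 reads in 15 mice, and just outside were Rplp1 +201 in 11 mice and Rps13 +47 in 9.

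RefSeq promoter windows (GRCm38.p6, 250 bases before to 50 after the start) were matched by symbol for 45 of the 56 RP genes, and motifs were searched as exact letters on both strands. CCGGAAG, the core bound by ETS factors, was present in 46.7% of RP genes and 9.93% of 27025 genes. GGGCGG, bound by Sp1, was present in 64.4% and 38.2%. CTTTC on the coding strand, a pyrimidine stretch of the kind found at RP gene starts, was present in 71.1% and 37.9%, and CTTTT on that strand in 40.0% and 34.9%. On both strands, which include the coding strand, CTTTC was present in 84.4% and 60.6% and CTTTT in 57.8% and 57.0%. TATAA was present in 20.0% and 28%, AAGATGG, bound by YY1, in 11.1% and 7.28%, and the assayed CCCGGG in 15.6% and 15.0%. A match is a run of letters and not evidence of binding.

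Total reads ran from 6427598 to 52015913 per mouse. The authors' adjusted percent differed from the raw one by a correction factor per mouse, made from spiked standards, which multiplied the odds of methylation. It was at least 1.3 in 6 mice (all 5 AL-old females and CR-old 06) and lower in 11, so among AL-old mice sex and a high factor cannot be told apart. Values below are raw, methylated over all reads, unless they are called adjusted. The labels name 1 sample per mouse, and p-values measure the spread between these mice.

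RP sites were almost free of methylated reads in every group. Pooled over the 38 sites, 344 of 572497 reads were methylated (0.0601%, 95% exact interval 0.0539 to 0.0668%). Of 646 values (38 sites in 17 mice), 484 (74.9%) had no methylated read and 105 had exactly 1. Above 1% were 12 values with at least 50 reads, 9 of them at Rps18 -435. The other 3 were single methylated reads, at Rplp1 -339 in CR-old 22 (1 of 55 reads), Rpl27 +372 in AL-old 25 (1 of 78) and Rpl24 +91 in AL-young 29 (1 of 97). Group means stayed under 0.5% in all 3 groups at 37 of the 38 sites. Intervals and limits cover counting error only, since reads carry no molecular identifiers.

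**Figure D1:**
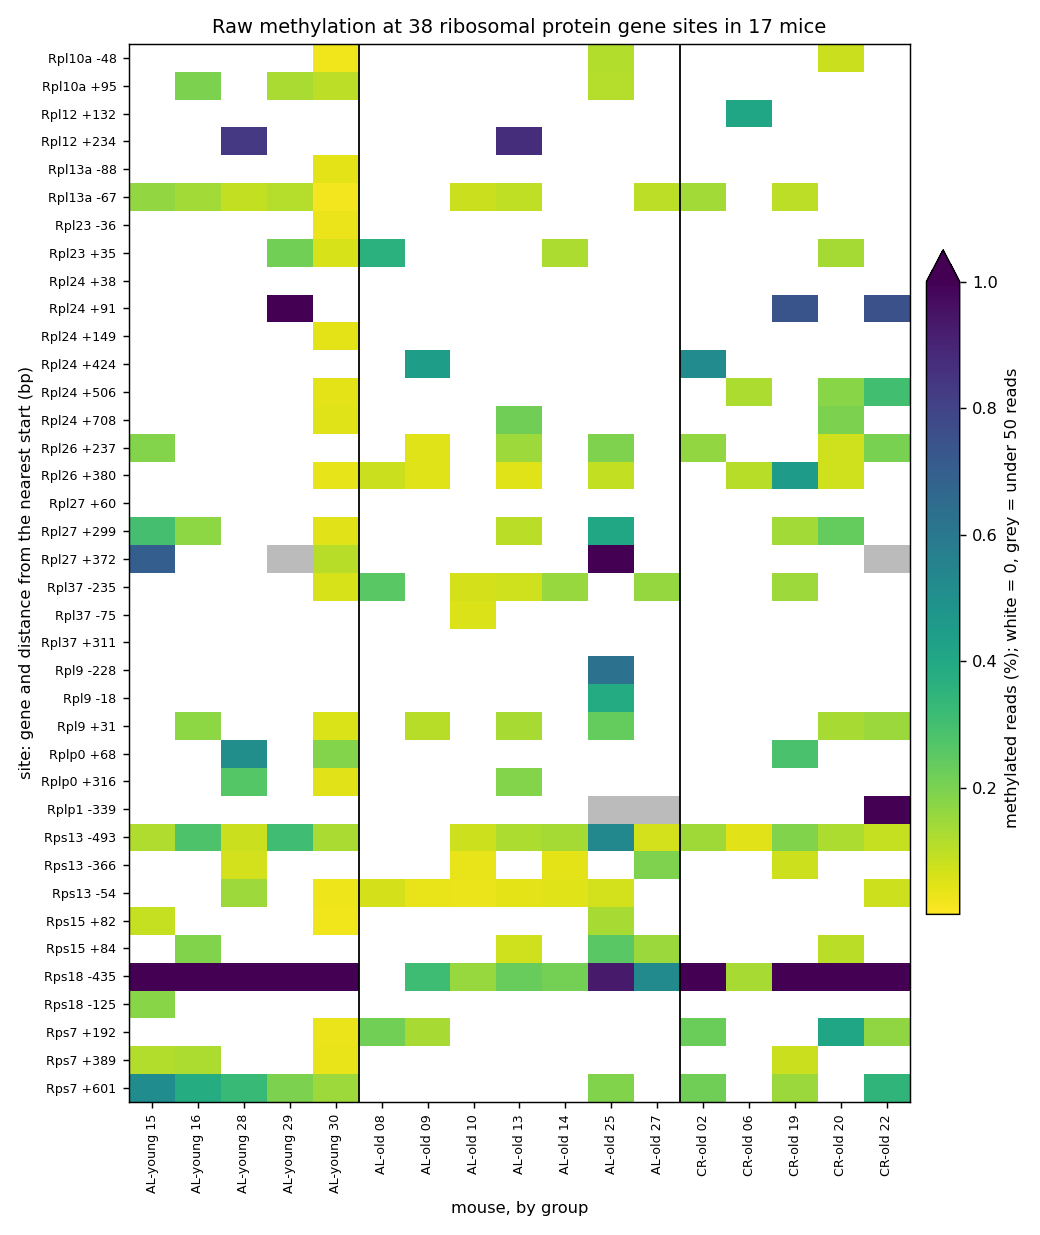
Methylated reads (color, %, capped at 1%) at 38 RP sites (vertical axis) in 17 mice (horizontal axis, by group), with white for 0 and grey for fewer than 50 reads. Most of the plot is white, and Rps18 -435 is above 1% in all 5 AL-young mice and in 4 of 5 CR-old mice.

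Reads in a group set what could be seen. Where a group held no methylated read, 3 reads of its total is roughly the highest share that a count of 0 allows at 95% confidence. Computed for every site and group, also those with methylated reads, this share ran from 0.0189 to 0.609%. Its median was 0.0595% over the sites in AL-old mice. A group held no methylated read at 9 sites in AL-young, 13 in AL-old and 15 in CR-old mice. Rpl27 +60, Rpl37 +311 and Rpl24 +38 had none in any mouse. In AL-old mice 217 of 266 values had a 95% Wilson upper bound under 2% and 258 under 5%.

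Per mouse, the pooled RP share was set beside the spiked DNA standard that read lowest, a comparison added after the data were seen. The labels do not name the standard of 0% methylation, and this one was taken as it from its values (218 of 197339 reads methylated, 0.110%). The RP share was 0.0678 to 0.0896% in AL-young mice, 0.0186 to 0.120% in AL-old mice (median 0.0288%) and 0.0138 to 0.134% in CR-old mice. AL-old 25 was the only AL-old mouse within or above the AL-young range. The standard read 0.0377 to 0.184% in AL-young, 0 to 0.213% in AL-old and 0.0219 to 0.254% in CR-old mice. The RP share was below the standard in 13 of 17 mice, and at or under its Wilson upper bound in 16.

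Both measures were lower in the mice with a high correction factor. The RP share was 0.0257 ± 0.0121% (mean ± SD, n = 6) in them and 0.0874 ± 0.0294% (n = 11) in the others. The standard read 0.0476 ± 0.0307% and 0.136 ± 0.0762%. Within the AL-old group the 5 mice with a high factor pooled to 0.0274% (0.0204 to 0.0360%) and the other 2 to 0.0826% (0.0565 to 0.117%), beside 0.0776% (0.0663 to 0.0903%) in AL-young mice. The part of the correction factor in these differences was not tested.

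**Figure D2:**
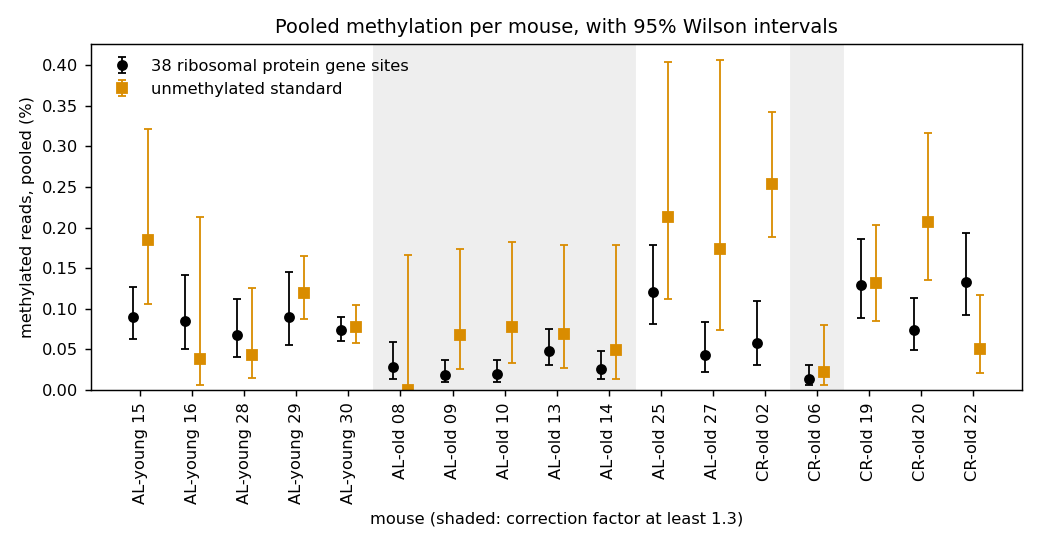
Methylated reads in %, with 95% Wilson intervals, pooled over the 38 RP sites (black circles) and over the lowest spiked standard (orange squares) in each of 17 mice, with shading for the 6 mice with a correction factor of at least 1.3. RP shares run from 0.0138 to 0.134% and lie below the standard in 13 mice.

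The comparison of AL-old with AL-young mice asked whether RP sites changed with age. No RP site was called in either direction. The quasi-likelihood F test of edgeR compared methylated with unmethylated reads at all 18884 autosomal sites, with Benjamini-Hochberg adjustment, and a site was called when its adjusted p was under 0.05 and its group means were at least 2 percentage points apart. Of 38 RP sites 0 were called higher in AL-old mice, where 3.94% of all sites were, and 0 were called lower, where 6.01% were. With so few sites, many of them neighbours, a count of 0 says little beside such shares. The share of all sites depended on the fit, while 0 RP sites were called in each of the fits that follow. It was 8.67% higher and 1.70% lower with low-factor mice alone, 6.98 and 3.33% with the factor as an offset, and 4.92 and 1.17% with a high factor as a covariate. Without AL-old 25 it was 9.10% lower. Unadjusted p was under 0.05 at 4 RP sites (Rps18 -435, Rps7 +601, Rplp0 +68 and Rps7 +389), with lower AL-old means at each, against 22.4% of all sites. limma on log odds and a likelihood ratio test with a dispersion per site also called 0 RP sites. The highest AL-young mean of an RP site was 1.81%, so none could be 2 points lower in AL-old mice. The count of 0 called lower was thus fixed by the 2-point minimum.

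Differences of group means were small. AL-old means were higher than AL-young means at 15 sites, lower at 18 and equal at 5, and the median difference was 0.0 points. This tally turned with the correction. With each value's odds corrected by the factor of its mouse, 19 sites had a higher mean in AL-old mice and 14 a lower one. With the adjusted percent 31 had a higher one, but that percent also adds 0.5 of a read. Its count thus does not show the correction alone. Rpl27 +60, with no methylated read in any mouse, had an adjusted mean of 0.943% for the AL-old group against 0.42% for the AL-young group. The largest gain in raw values, 0.0893 points at Rpl9 -228, came from 1 methylated read of 160 in AL-old 25. With corrected odds the largest gain was 0.297 points at Rpl12 +234, from 0.182% to 0.479%, a site named after its values were seen, with 1 methylated read in each of these groups. The largest drop was -1.48 points at Rps18 -435, and the next was -0.29 points at Rps7 +601. With no minimum difference these 2 sites passed the adjusted p, both lower in AL-old mice, where 6.41% of all sites did.

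Rps18, a protein of the head of the small subunit, held the site that stood apart. Rps18 -435 (chromosome 17, 34093379 to 34093384, mm9) lay upstream of Rps18 and 622 bp into Vps52, a gene for a vesicle tethering protein, in no exon of it. It was 156 bp from the edge of an island of 1566 bp. Over the 500 bp around a site it had the lowest CpG ratio of the 36 island sites (0.568, the next being 0.641). The island rule takes the ratio over other stretches, so a site in an island can be under 0.6 by this measure. Rps18 -435 held 120 of the 344 methylated reads of all RP sites.

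AL-young mice 15, 16, 28, 29 and 30 had 1.86, 1.27, 1.10, 2.63 and 2.20% methylated reads at Rps18 -435. AL-old mice 08, 09, 10, 13, 14, 25 and 27 had 0, 0.311, 0.153, 0.233, 0.208, 0.926 and 0.524%. CR-old mice 02, 06, 19, 20 and 22 had 1.08, 0.130, 3.76, 1.65 and 4.12%. Every AL-old mouse was below every AL-young mouse, while the CR-old values spanned both groups.

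The means at Rps18 -435 were 1.81 ± 0.637% (SD, n = 5) for AL-young, 0.336 ± 0.305% (n = 7) for AL-old and 2.15 ± 1.73% (n = 5) for CR-old mice. The age difference had a log2 odds ratio of -2.52 ± 0.79 (SE) and an edgeR adjusted p of 0.0264. It lost the threshold with low-factor mice alone (difference -1.09 points, edgeR adjusted p 0.399) and with a high factor as a covariate (log2 odds ratio -0.68, adjusted p 0.800). The 6 mice with a high factor had 0 to 0.311% and the 11 others 0.524 to 4.12%, without overlap. The neighbouring Rps18 -125, 310 bp away in the same island, had 1 methylated read of 8990, in AL-young 15 (0.177%), and 0 in the other 16 mice.

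Rps7, a small subunit protein that also binds the p53 regulator Mdm2, had its 3 sites in introns. At Rps7 +601 (chromosome 12, 29320215 to 29320220) the AL-young mice had 0.514, 0.380, 0.327, 0.196 and 0.147%. In AL-old mice 6 were at 0 and AL-old 25 had 0.190% (1 of 526 reads). CR-old mice had 0.217, 0, 0.152, 0 and 0.346%. All AL-young mice held a methylated read, and their range overlapped with AL-old 25. The means were 0.313 ± 0.147%, 0.0272 ± 0.0719% and 0.143 ± 0.148%, and the age difference had a log2 odds ratio of -3.35 ± 1.07 and an edgeR adjusted p of 0.0281. All 6 mice with a high factor were at 0, and with low-factor mice alone the adjusted p was 0.647.

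**Figure D3:**
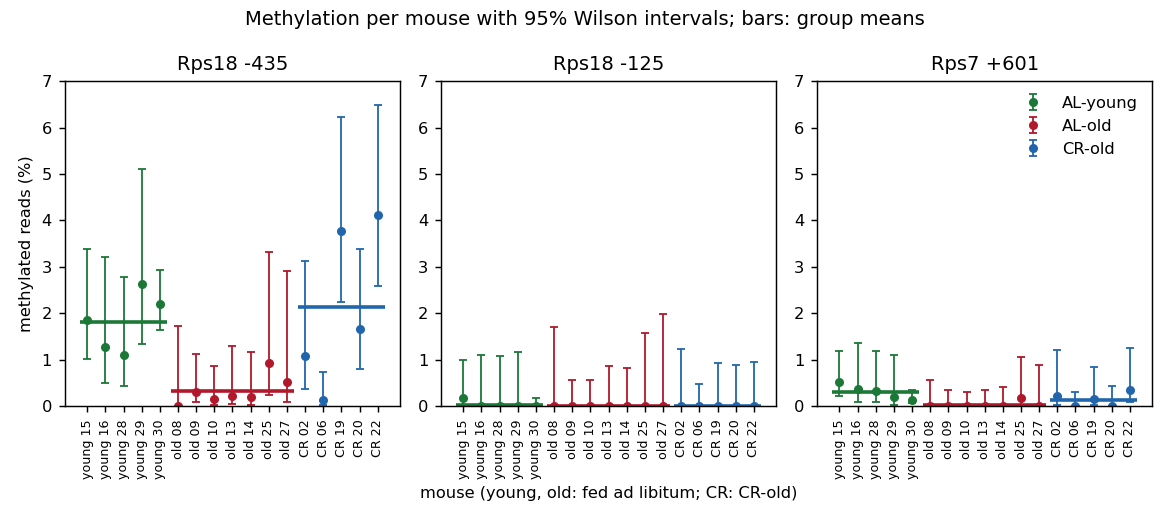
Methylated reads (%) per mouse with 95% Wilson intervals at Rps18 -435, Rps18 -125 and Rps7 +601, with horizontal bars for group means. At Rps18 -435 the AL-young mean is 1.81%, the AL-old mean 0.336% and the CR-old mean 2.15%, while Rps18 -125 is at 0 in 16 mice.

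Rps13, also of the small subunit, had the deepest sites. At Rps13 -54, 11 of 36891 reads were methylated, and the 3 group means (AL-young, then AL-old, then CR-old) were 0.0343, 0.0409 and 0.0152%. At Rps13 -366 they were 0.0139, 0.0378 and 0.0153%. Rps13 -493, the farthest upstream, had methylated reads in 15 of 17 mice, with means of 0.182 ± 0.102%, 0.134 ± 0.185% and 0.118 ± 0.0544%. Its AL-old range of 0 to 0.535% enclosed its AL-young range of 0.0812 to 0.305%.

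Rpl26, a large subunit protein near the exit tunnel for new chains, had both sites in introns, with 13 methylated reads each. At Rpl26 +237 the means, again from AL-young to AL-old to CR-old, were 0.0373, 0.0555 and 0.0875%, and at Rpl26 +380 they were 0.00753, 0.0388 and 0.125%. The highest value at Rpl26 +380 was 0.445% (4 of 898 reads, CR-old 19), and the edgeR adjusted p for CR-old against AL-old was 0.523. Rpl37 -235, in the stretch printed above, was at 0 in 4 AL-young mice and at 0.0590% in AL-young 30. In AL-old mice it was 0 to 0.256%, with 1 or 2 methylated reads in 5 mice and an edgeR adjusted p for age of 0.462.

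Rplp0 forms the base of the P-stalk, the arm of the large subunit that recruits translation factors. Rplp0 +68 (chromosome 5, 116009698 to 116009703), in an untranslated exon, had 2 of 396 reads methylated in AL-young 28 and 4 of 2168 in AL-young 30, and 0 in the other AL-young mice. All 7 AL-old mice were at 0, which with 3688 reads allows up to about 0.0813% at 95% confidence. CR-old 19 had 0.288%, with the other CR-old mice at 0. The edgeR adjusted p for age was 0.120. Rpl10a +95 had methylated reads in 3 AL-young mice (mean 0.0850 ± 0.0850%), in 1 AL-old mouse (0.0161 ± 0.0426%) and in no CR-old mouse, with an adjusted p for age of 0.293.

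Rpl13a, a large subunit protein also known from the interferon response, had both its sites outside islands. Over the 500 bp around them the CpG ratios were 0.504 and 0.518. Rpl13a -88 had 2 methylated reads of 27303, both in AL-young 30. Rpl13a -67 had 0.104 ± 0.0547% in AL-young, 0.0393 ± 0.0494% in AL-old and 0.0475 ± 0.0667% in CR-old mice, with an edgeR adjusted p for age of 0.571. Rpl9 -18 and Rpl9 -228 had 1 methylated read each, both in AL-old 25. Rpl24 +91 had 3 methylated reads in 3 mice and Rpl24 +424 had 2 in 2 mice, with edgeR adjusted p for age of 0.612 and 0.417.

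CR-old mice were compared with AL-old mice to ask whether diet was associated with a difference at old age. No RP site was called here either. Of 38 sites 0 were called higher in CR-old mice, where 1.58% of all sites were, and 0 lower, where 1.76% were. Beside such shares a count of 0 of 38 says little. The count of 0 lower was fixed by the 2-point minimum, since the highest AL-old mean of an RP site was 0.336%. The share of all sites was 0.143% higher and 2.12% lower with low-factor mice alone, 1.19 and 6.59% with the factor as an offset, and 0.847 and 0.736% with AL-young mice left out of the fit, with 0 RP sites called in each. With a high factor as a covariate 0.111% were higher. Leaving out 1 mouse at a time the shares ran from 0.598 to 4.14% and from 0.477 to 3.73%, both highest without AL-old 25 and lowest without CR-old 20. Unadjusted p was under 0.05 at 2 RP sites, Rps18 -435 and Rpl24 +506, both with higher CR-old means, against 15.8% of all sites, and limma and the likelihood ratio test also called 0. Rps18 -435 had the smallest adjusted p (edgeR, 0.0814), with CR-old higher by 1.81 points and a log2 odds ratio of 2.43 ± 0.83. Without CR-old 06, the CR-old mouse with a high factor, the difference was 2.32 points with an adjusted p of 0.0190, and the site was then called. With low-factor mice alone the adjusted p was 0.235.

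CR-old against AL-young mice gave 0 calls of 38, and 0.0% of all sites were called in either direction. That share depended on the fit, with 0 RP sites called in each. With AL-old mice left out of the fit 0.842% of all sites were called higher in CR-old mice and 6.29% lower, and with low-factor mice alone 0.291 and 2.01%. Unadjusted p was under 0.05 at 2 RP sites, Rps7 +192 and Rpl10a +95, against 6.83% of all sites, the smallest edgeR adjusted p was 0.697, and limma and the likelihood ratio test called 0 RP sites. Here too the 2-point minimum left no RP site that could be called lower, with AL-young means of at most 1.81%. These 3 comparisons share mice and are not independent.

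Means over sites were taken per mouse as a description. Over the 36 island sites they were 0.101 ± 0.0199% for AL-young (n = 5), 0.0488 ± 0.0509% for AL-old (n = 7) and 0.116 ± 0.0824% for CR-old mice (n = 5). The ranges were 0.0771 to 0.129%, 0.0112 to 0.158% and 0.0227 to 0.229%. AL-old minus AL-young was -0.0525 points, and -0.00645 points with low-factor mice alone. With the adjusted percent, which adds 0.5 of a read before the correction, it was 0.126 points, so the direction turned. Without the added read it was -0.019 points. Rps18 -435 is 1 of the 36 sites and weighs heavily in these means. Its raw age difference was -1.48 points, and the next largest drop was -0.29 points, at Rps7 +601.

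Over the 2 sites outside islands the means were 0.0562 ± 0.0200%, 0.0196 ± 0.0247% and 0.0238 ± 0.0333%. Leaving out Rps18 -435, a choice made after the data were seen, the remaining 37 sites pooled to 0.0460% (0.0374 to 0.0561%) in AL-young, 0.0338% (0.0266 to 0.0424%) in AL-old and 0.0395% (0.0294 to 0.0520%) in CR-old mice, with overlapping intervals. The large subunit sites pooled to 0.0390, 0.0297 and 0.0380%. The small subunit sites, with Rps18 -435, pooled to 0.140, 0.0483 and 0.125%.

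Sites of RP genes that failed on depth separated by island. In islands 37 such sites held 9 methylated reads of 6924 (0.130%, exact interval 0.0595 to 0.247%). Outside islands 23 sites held 385 of 2413 (16.0%). Of these, 12 sites within 1000 bp of a start had 8.12% (6.94 to 9.43%). Rps15 +966 held 1066 of their 1934 reads, with 1.78% methylated, and the other 11 pooled to 15.9% (13.5 to 18.5%), a split made after the data were seen. The sites farther in had 47.6% (43.0 to 52.2%). The low level was seen at the island sites of RP genes and not at the distant sites. The 2 sites outside islands that passed, Rpl13a -88 and Rpl13a -67, were low as well (2 of 27303 and 14 of 28484 reads). Island and distance from a start were not separated. In the 11 distant sites AL-young mice had 58.2% of 227 reads methylated, AL-old mice 29.6% of 125 and CR-old mice 46.5% of 127, and no test was run on them. These shares are raw, and 5 of the 7 AL-old mice had a high factor.

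**Figure D4:**
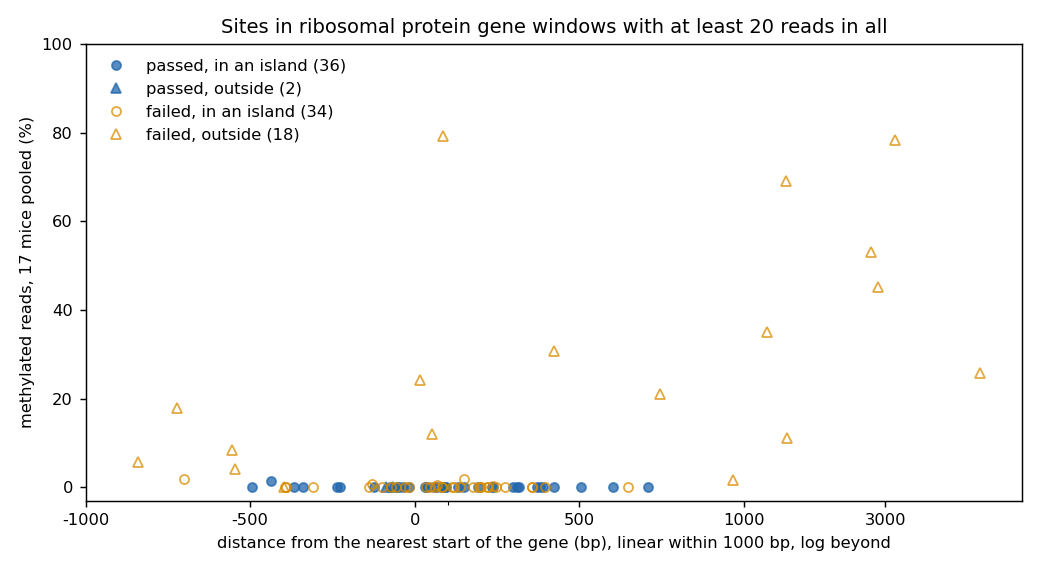
Methylated reads (%, 17 mice pooled) at 90 sites of RP gene windows with at least 20 reads against distance from the nearest start (bp, linear within 1000 bp and log beyond), with filled symbols for sites that passed, open symbols for sites that failed, circles for islands and triangles for sites outside them. The 34 failed island sites reach 1.92%, while 13 of 18 failed sites outside islands are above 10%.

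Of the genes listed for known roles, Rplp0 alone had a site that passed. At the site nearest the start Rpl5 (0 of 70 reads), Rpl11 (0 of 4), Rpl22 (0 of 61), Rpl38 (0 of 89) and Rpsa (0 of 66) had no methylated read over all mice. These counts of 0 allow up to 4.29, 75, 4.92, 3.37 and 4.55%, so little can be said of them. Rpl5 and Rpl11 are known for binding Mdm2 with the 5S RNA, and Rpl38 for its part in translating Hox mRNA. Rps19, mutated in Diamond-Blackfan anemia, had 9 of 37 reads methylated at +16, outside islands (24.3%, exact interval 11.8 to 41.2%). Its other site lay 4140 bp away, in an island and at -17 from another annotated start, and had 0 of 103 reads methylated. Which of these starts is the main promoter was not examined. Rps6 and Rps14 had no CCCGGG site in their windows.

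RP sites were then set beside other gene lists, counted the same way. Of 8415 promoter island sites, which include 33 RP sites, 5.2% were called higher in AL-old mice and 0.309% lower, and 15.0% gained at least 1 point. Of the 7507 with an AL-young mean under 1%, 4.05% were called higher, 9.84% gained at least 1 point, and 10.2% had an AL-old mouse above 5%. No RP site gained 1 point or had an AL-old mouse above 5%. The median absolute age difference was 0.0266 points at RP sites and 0.0762 at promoter island sites. The median SD between AL-old mice was 0.0492 points at RP sites and 0.125 at promoter island sites, with 620 and 395 reads per mouse, so depth differed as well.

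Hox cluster genes, which set position along the body axis in development, moved in both directions. Of 40 sites, in overlapping windows that gave them to 14 Hox genes when each site was given to 1 gene, 6 (15.0%, beside 3.94% of all sites) were called higher in AL-old mice and 0 lower. At least 1 point was gained at 18 sites (45.0%, beside 17.4% of all sites) and lost at 5 (12.5%, beside 25.8%), with a median difference of 0.58 points and a range of -11.1 to 14.5. All 5 sites that lost at least 1 point lay outside islands, while gains were found both in islands and outside them. The Hox mean per mouse was 3.33 ± 0.239% in AL-young, 6.53 ± 4.35% in AL-old and 4.07 ± 0.814% in CR-old mice. AL-old 27 had 15.5%, and without it the AL-old mean was 5.03 ± 1.94% (n = 6). AL-old 08 and AL-old 13, with 2.90 and 2.43%, were below every AL-young mouse. These values are raw, and the correction factors of AL-old 08 and AL-old 13, 3.19 and 3.96, were the highest of all mice. The part of the factor in this was not tested. Leaving AL-old 27 out, a choice made after the data were seen, also lowered the shares of promoter island sites under 1% in AL-young mice, to 6.27% that gained at least 1 point and 5.69% with an AL-old mouse above 5%, and both counts stayed at 0 for RP sites.

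Lists nearer to RP genes in function had no site called higher with age, where 3.94% of all sites were. They held 11 to 41 sites each, so a count of 0 says little. Their largest gain was 15.0 points, at Bop1 +8893 of the ribosome assembly list, outside islands, and it was not called. The AL-young mean there was 70.0% and the AL-old mean 85.0%. Other cytosolic RP genes (11 sites in 4 of 27 genes) and translation factors (31 sites in 10 of 35 genes) had 0 calls by edgeR in the age comparison, with 0 and 4 sites at an unadjusted p under 0.05. Ribosome assembly genes (41 sites in 12 of 39 genes) had 3 calls (7.32%, beside 6.01% of all sites called lower), all lower in AL-old mice and all upstream of Rrp9, a protein of a nucleolar RNA particle, outside islands. At Rrp9 -156 AL-young mice had 44.1 ± 5.72% and AL-old mice 12.9 ± 18.0% (edgeR adjusted p 0.00103). Mitochondrial RP genes (29 sites in 13 of 77 genes) had 2 calls (6.90%), both lower and both in Mrps12 outside islands, at +67 from 94.5 ± 1.11% to 61.6 ± 25.0% (adjusted p 0.00102). These values are raw, and 5 of the 7 AL-old mice had a high factor. The share of all sites called lower was 1.70% with low-factor mice alone and 1.17% with a high factor as a covariate. The part of the factor in the Rrp9 and Mrps12 calls was not tested. Bop1, Rrp9 and Mrps12 were named after their values were seen.

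**Figure D5:**
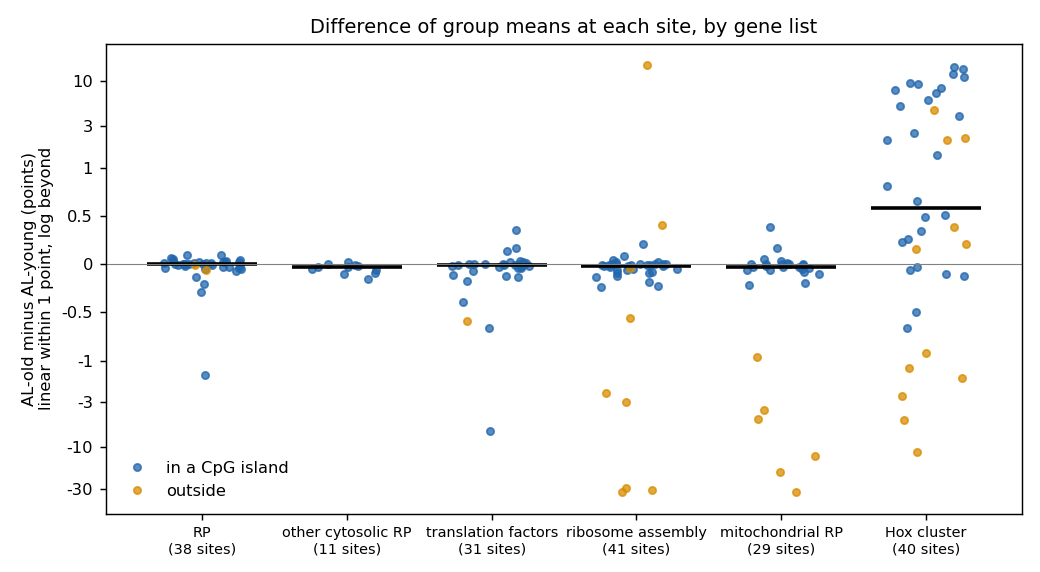
AL-old minus AL-young group means (points, linear within 1 point and log beyond) at each site of 6 gene lists, blue in islands and orange outside, with a black bar at each list's median. The 38 RP sites lie between -1.48 and 0.0893 points, while 18 of 40 Hox sites are at 1 point or more.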

How the data were processed

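DREAM was run by the authors on whole blood DNA of 17 mice with spiked standards, and reads were mapped to mm9. The submitters' processing notes list Bowtie2 and SAMtools, whose versions are not given in the sources used here. The deposited files hold methylated and unmethylated read counts per CCCGGG site, a raw percent with 0.5 of a read added by the authors, and an adjusted percent that the authors corrected with the standards. From the counts, raw percent was recomputed without the added read wherever 13 or more mice had 50 or more reads. Gene windows came from GENCODE release M1. Groups were taken from the labels. Counts of 18884 autosomal sites were tested with edgeR 4.0.16 (R 4.3.3), with 1 dispersion and 3 groups, and limma 3.58.1 as an alternative; scripts were tested on simulated data. Python 3.11.15 did the rest. Alternatives were read minimums, windows, correction, sex, test, minimum difference and leaving out each mouse (17 fits).

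The members, lists and tests were chosen with earlier results of these data known. Sites were named by rule: those called, the 10 largest age differences with full depth, the 5 deepest and 3 highest island sites, and the site nearest the start of genes with known roles. Depth was 6427598 to 52015913 reads per mouse over all sites.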

Additional observations from a re-analysis of the deposited data

Results flagged for a closer look

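Within single groups 1 mouse often stood far from the rest (Dixon's test at 95%, which chance passes in about 1 of 20 groups, and which counts of 0 in the other mice pass readily). AL-old 25 was the high one at Rpl9 -18 (0.383%), Rpl9 -228 (0.625%), Rps13 -493 (0.535%), Rps7 +601 (0.190%) and Rpl10a +95 (0.113%). It was also high in the mean over island sites (0.158%, the next being 0.0624%) and in the pooled RP share (0.120%, the next being 0.0479%), and it is 1 of 2 AL-old mice with a low correction factor. AL-old 27 stood apart at Rps13 -366 (0.192%) and AL-old 09 at Rpl24 +424 (0.441%). Among CR-old mice CR-old 19 stood apart at Rplp0 +68 (0.288%), Rps13 -366 (0.0764%), Rpl26 +380 (0.445%) and Rpl37 -235 (0.148%), CR-old 22 at Rps13 -54 (0.0762%) and CR-old 02 at Rpl24 +424 (0.518%). Among AL-young mice AL-young 28 stood apart at Rps13 -54 (0.145%) and Rps13 -366 (0.0695%), AL-young 15 at Rpl26 +237 (0.187%), AL-young 30 at Rpl26 +380 (0.0377%) and Rpl37 -235 (0.0590%), and AL-young 29 at Rpl24 +91 (1.03%).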

How the results depend on the processing

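No paired analysis was possible because the groups share no mouse numbers. With no minimum difference the RP sites called lower with age went from 0 to 2, and leaving out 1 mouse at a time the sites called higher in CR-old than in AL-old mice ranged from 0 to 1 (Rps18 -435, without CR-old 06). In islands the mean AL-old minus AL-young difference of -0.0525 points was -0.00645 with low-factor mice alone and 0.126 with the adjusted percent, and CR-old minus AL-old went from 0.0669 to -0.103. Rps18 -435, with raw differences of -1.48 and 1.81 points, weighs heavily in both raw means. Outside islands the adjusted percent gave 0.00214 in place of -0.0365 and -0.0281 in place of 0.00413. Rps18 -435 and Rps7 +601 lost the adjusted p for age with low-factor mice alone, with the factor as an offset (edgeR, 0.0942 and 0.0611), with a high factor as a covariate, and Rps18 -435 also with sex as a covariate (0.130). Leaving out single mice gave 0.00973 to 0.0776 for Rps18 -435, over 0.05 without AL-young 15, 29 or 30 or AL-old 10. It gave 0.00459 to 0.0847 for Rps7 +601, over 0.05 without AL-young 15, 16 or 28 or AL-old 09, 10 or 13. For diet, Rps18 -435 passed without AL-old 25 (0.0289) as well as without CR-old 06 (0.0190). The causes were not tested.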
